A study of Mus musculus with 14 samples.

Results

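The genes described here are 10 members of the major histocompatibility complex (MHC) class I presentation pathway of the mouse: the heavy chains H2-K1, H2-D1, H2-Q4, H2-Q6, H2-Q7 and H2-T23, the light chain B2m, the peptide transporter subunit Tap1, the loading factor Tapbp and the transcriptional activator Nlrc5. They were matched by gene name in a table of 55335 genes. The set was selected on the count values of H2-Q7, which were lower after external irradiation. Total body irradiation against untreated was therefore the comparison behind the choice, and in it the members' values are given as a description with no test. All 10 members were among the 21509 genes that passed the filter on low counts.

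Bone marrow cells of reporter mice were sorted and their RNA was sequenced in bulk, in 14 libraries. Every group carried the same genotype, Cdh5 CRE Rosa26 TdTomato, in which a Cre recombinase driven by the promoter of the endothelial cadherin gene Cdh5 switches on a red fluorescent protein for good, so that the colour marks any cell whose lineage once used that promoter. The sort kept cells negative for lineage markers and for CD45 and positive for the reporter, and the labels call them endothelial. The 4 untreated libraries came from mice given no radiation. Total body irradiation (TBI) was 500 cGy from a Cesium source (5 libraries, replicates 1, 3, 4, 5 and 6). Radioimmunotherapy (RIT), in which an antibody carries a radionuclide through the body, was given at 20 µCi in both forms: on an IgG with no target (IgG RIT, 3 libraries) or on an antibody to the leukocyte antigen CD45 (CD45 RIT, 2 libraries). Treatment preceded harvest by 8 days. The labels give no ages, and they do not say that each library came from a separate animal, so p-values measure the spread between these libraries only.

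MHC class I molecules show fragments of a cell's own proteins to CD8 T cells and to natural killer cells. A heavy chain pairs with beta-2 microglobulin in the endoplasmic reticulum, where the TAP transporter brings in peptides cut by the proteasome and tapasin holds the empty molecule beside TAP until a peptide fits. Interferons raise the genes of this pathway together through IRF1 and the activator NLRC5, which works at an upstream promoter module (an enhancer A bound by NF-kappaB, an interferon-response element, and an SXY module that holds a cAMP-response-like core and a CCAAT box). The classical heavy chains H2-K and H2-D are made by nearly all nucleated cells, whereas the Q and T region heavy chains include less variable, non-classical molecules with narrower roles.

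The members lie at 3 places in the genome (GRCm38, coordinates from the deposited table). Chromosome 17 holds Tapbp (chr17:33915899-33929292, plus strand), H2-K1 (chr17:33996017-34000347, minus strand), Tap1 (chr17:34187553-34197225, plus strand), H2-D1 (chr17:35262730-35267499, plus strand), H2-Q4 (chr17:35379617-35385290, plus strand), H2-Q6 (chr17:35424850-35430055, plus strand), H2-Q7 (chr17:35439155-35443773, plus strand) and H2-T23 (chr17:36029773-36032855, minus strand). B2m is on chromosome 2 (chr2:122147686-122153083, plus strand) and Nlrc5 on chromosome 8 (chr8:94434356-94527272, plus strand). All 10 are annotated as protein coding.

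Promoter sequence was found for 9 of the 10 members in RefSeq (GRCm38.p6), as the 250 bases before the annotated start. In GENCODE M21 the windows of H2-D1, H2-T23, B2m, Tap1 and Tapbp overlap exons of the gene itself. Those of H2-Q4 (Gm11131), Tap1 (Psmb9) and Tapbp (Zbtb22 and Gm19412) overlap exons of other genes. The Tapbp window (chr17:33919228-33919477) lies inside the deposited gene, which starts at 33915899. The windows of H2-K1 (chr17:34000348-34000597, minus strand), H2-Q6 (chr17:35424600-35424849, plus strand), H2-Q7 (chr17:35438905-35439154, plus strand) and B2m (chr2:122147437-122147686, plus strand) are shown, since these 4 genes hold a classical heavy chain, the 2 heavy chains with the lowest relative levels after irradiation, and the light chain that all class I molecules share. Each runs 5′ to 3′ on the gene's own strand. Capitals mark matches, on either strand, to the letters GGGATTCCC (a kappaB core) and its longer palindrome with a further G before and a further C after, to TTTCNNTTC and its longer form with a further T after the NN (2 spacings of an interferon-response repeat), and to TGACG (the cAMP-response core) and CCAAT.
H2-K1: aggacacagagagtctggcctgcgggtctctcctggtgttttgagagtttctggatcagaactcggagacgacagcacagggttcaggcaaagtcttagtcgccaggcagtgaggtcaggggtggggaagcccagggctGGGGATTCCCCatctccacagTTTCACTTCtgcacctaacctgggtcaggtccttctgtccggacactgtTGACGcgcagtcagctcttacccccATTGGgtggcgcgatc
H2-Q6: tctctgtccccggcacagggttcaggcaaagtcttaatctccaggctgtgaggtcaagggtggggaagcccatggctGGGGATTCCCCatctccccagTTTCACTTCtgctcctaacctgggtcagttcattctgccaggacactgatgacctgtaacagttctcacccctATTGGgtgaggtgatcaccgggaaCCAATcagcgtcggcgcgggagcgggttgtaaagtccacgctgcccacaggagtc
H2-Q7: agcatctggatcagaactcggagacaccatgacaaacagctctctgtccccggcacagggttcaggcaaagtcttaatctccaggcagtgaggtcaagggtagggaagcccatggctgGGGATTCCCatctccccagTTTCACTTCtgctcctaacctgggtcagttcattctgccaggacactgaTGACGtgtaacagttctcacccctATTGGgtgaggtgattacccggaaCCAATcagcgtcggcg
B2m: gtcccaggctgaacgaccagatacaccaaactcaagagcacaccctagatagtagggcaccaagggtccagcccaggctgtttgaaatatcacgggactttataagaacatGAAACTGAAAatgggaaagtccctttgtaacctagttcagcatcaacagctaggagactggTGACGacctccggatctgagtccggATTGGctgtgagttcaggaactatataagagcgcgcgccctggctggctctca
For H2-T23, the heavy chain with a different pattern of values, the 30 bases around its repeat are shown (chr17:36032806-36032835, minus strand), a stretch inside the untranslated part of its first exon in GENCODE M21.
H2-T23: atcctactgcTTTCTCTTTCataaagacac

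The longer kappaB palindrome stood in 3 of the 9 member windows (H2-K1, H2-D1 and H2-Q6). Among 32851 windows of the same length it stood in 10 (0.0304%), the members' own included. The core GGGATTCCC, which lies within the palindrome, stood in 4 of 9 (these and H2-Q7) against 0.301% of all windows. The repeat TTTCNNTTC was found in 5 of 9 members (H2-K1, H2-D1, H2-Q4, H2-Q6 and H2-Q7) against 6.31% of windows, and its longer form in 2 of 9 (H2-T23 and B2m) against 2.98%. TGACG was found in 6 of 9, and not in the windows of H2-Q6, H2-T23 and Tapbp, against 17.8% of windows, and CCAAT in 9 of 9 against 33.8%. A match is a description of letters, not of a bound site. The windows of H2-Q6 and H2-Q7 aligned over 210 bases with 205 identical (97.6%), and the remaining bases of each 250 lay outside that alignment. Where they aligned, pairs among H2-K1, H2-D1, H2-Q4, H2-Q6 and H2-Q7 were 84.1% to 97.6% identical. Matches shared by these genes are therefore not independent.

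The transcripts are alike too, which limits how reads can be assigned. The longest coding transcripts of H2-Q6 and H2-Q7 were 89.5% identical where they aligned, and those of H2-K1 and H2-D1 91.1%. Of all stretches of 50 bases in a gene's coding transcripts, 34.9% of those of H2-Q7 and 32.0% of those of H2-Q6 also occurred in another gene, against 28.8% for H2-T23, 24.3% for H2-Q4, 13.9% for H2-D1 and 6.87% for H2-K1. B2m and Nlrc5 shared 0%, Tap1 0.834% and Tapbp 3.499%. How the counter treated shared reads and strand is not given in the sources used here, so the split of counts among the Q and T genes is uncertain. The same holds for members that overlap another gene on the opposite strand (H2-Q4 with Gm11131, H2-T23 with A930015D03Rik, B2m with Patl2, Tap1 with Psmb9, Tapbp with Gm19412, Nlrc5 with 9330175E14Rik) or on the same one (Tapbp with Zbtb22, Nlrc5 with Mir7072).

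The libraries held 16412779 to 31077588 counts, and 17700 (CD45 RIT replicate 2) to 26752 genes with at least 1 count. The 14 endothelial markers were checked against the label and did not move together. Their summed level was 178.65 to 225 CPM (counts scaled to the library size) in untreated, 82.0 to 164 CPM in TBI, 71.1 to 78.8 CPM in IgG RIT and 87.2 and 263 CPM in CD45 RIT libraries, with 0 to 7 of the 14 at 0 counts in a library. Cdh5, whose promoter drives the reporter, had 0 to 6 counts in the untreated and TBI libraries and 0 in all 5 RIT libraries. A floor of 3 counts per library was reached only in untreated replicates 1 and 4 (4 and 6 counts) and TBI replicates 1 and 3 (3 and 5 counts). Pecam1, another endothelial marker, had 894 to 1957 counts in untreated libraries and 6 and 4 in the CD45 RIT libraries. Kdr, an endothelial receptor for VEGF, had 0 to 70 counts in untreated libraries, 1 in CD45 RIT replicate 1 and 2390 in CD45 RIT replicate 2. The defining marker Cdh5 was thus at or near 0 in every library, which goes against the label, while other endothelial markers were detected. The summed level of 13 erythroid markers, which mark red cell precursors, was 8607 to 15459 CPM in untreated libraries, 26821 to 45551 in TBI replicates 1, 3, 4 and 5, 176986 in TBI replicate 6, 134950 to 143352 after IgG RIT, and 191880 and 47436 in CD45 RIT replicates 1 and 2. Summed stromal markers were 3773 to 9401 CPM in untreated, 1092 to 2472 in TBI, 422 to 1297 in IgG RIT and 34395 and 62248 CPM in CD45 RIT libraries. Summed macrophage markers were 219 to 293, 118 to 142, 121 to 174, and 2528 and 3375 CPM in the same order, and pan-leukocyte markers 3473 to 3954, 988 to 2096, 547 to 672, and 342 and 887 CPM. Neutrophil markers summed to 10285 to 12920, 92.4 to 1217, 601 to 804, and 5.23 and 14.6 CPM, megakaryocyte markers to 353 to 425, 67.0 to 121, 100.4 to 141, and 231 and 105 CPM, and B cell markers to 612 to 2064, 220.01 to 2740, 138 to 470, and 378 and 391 CPM. The part of these cell mixtures in the values below was not tested, and in bulk RNA fewer cells of a type and less RNA per cell cannot be told apart. The library names also split the samples: the untreated libraries and TBI replicates 1, 3, 4 and 5 carry the numbers 1 to 9, and TBI replicate 6 and every RIT library carry 10 to 16. What that numbering stands for is not given in the sources used here, and for RIT against untreated it cannot be told apart from treatment.

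Per length (CPM on the scaled library size, divided by the gene length in kilobases), untreated cells held most RNA for B2m, with a mean of 1234, followed by H2-D1 at 699 ± 97.6 (SD, n = 4) and H2-K1 at 293 ± 53.3. Tapbp at 65.1, H2-T23 at 51.7 ± 8.50, H2-Q6 at 36.2 ± 7.76, H2-Q7 at 23.6 ± 5.39 and Tap1 at 23.02 followed, and H2-Q4 at 2.61 and Nlrc5 at 1.62 were lowest. H2-Q7 and Tap1, next to each other in this order, did not differ beyond their spread. The order depends on the deposited lengths. H2-Q7 was divided by 4265 bases, although its longest coding transcript had 1523, and H2-Q6 by 2085, the length of its longest coding transcript. Before division by length, the untreated mean was 101 CPM for H2-Q7 and 75.5 CPM for H2-Q6, so their order here is uncertain. All values from here on are CPM on library sizes scaled by the trimmed mean of M-values (TMM), and they compare 1 gene between libraries.

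The classical heavy chains were lower after TBI and after IgG RIT and higher after CD45 RIT than in untreated cells. H2-K1 was at 747, 1077, 872 and 743 CPM in untreated replicates 1 to 4. It was at 354, 386, 407, 468 and 182 CPM in TBI replicates 1, 3, 4, 5 and 6, at 216, 216 and 292 CPM after IgG RIT, and at 1953 and 3286 CPM after CD45 RIT. No TBI or IgG RIT library reached the untreated range, both CD45 RIT libraries lay above it, and TBI replicate 6 lay below every IgG RIT library. The fitted difference of TBI from untreated was -1.26 on the log2 scale (SE 0.26). H2-K1 fell by 1.83 (SE 0.31) after IgG RIT (adjusted p = 0.00372, edgeR's quasi-likelihood test with Benjamini-Hochberg adjustment) and rose by 1.61 (SE 0.32) after CD45 RIT against untreated (adjusted p = 0.00266, same test).

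H2-D1, the other classical heavy chain, was likewise below its untreated range after TBI and IgG RIT and above it after CD45 RIT. It was at 1819, 2136, 1716 and 1536 CPM in untreated libraries, at 888, 955, 901, 1080 and 715 CPM in TBI replicates 1, 3, 4, 5 and 6, at 784, 1014 and 1079 CPM after IgG RIT and at 4794 and 6350 CPM after CD45 RIT. The TBI and IgG RIT ranges overlapped each other and lay wholly below the untreated one. The difference of TBI from untreated was -0.99 (SE 0.16). H2-D1 fell by 0.91 (SE 0.19) after IgG RIT (adjusted p = 0.00853, edgeR) and rose by 1.63 (SE 0.20) after CD45 RIT (adjusted p = 1.19e-04, edgeR).

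H2-Q7, a heavy chain of the Q region that can be held at the cell surface by a lipid anchor, had the lowest TBI levels relative to untreated among the 10 members, which is the value the set was chosen for. It was at 89.7, 126, 112 and 74.9 CPM in untreated libraries and at 11.8, 14.7, 13.7, 19.6 and 10.6 CPM in TBI replicates 1, 3, 4, 5 and 6. After IgG RIT it was at 16.0, 11.2 and 22.6 CPM, and after CD45 RIT at 112 and 194 CPM. The highest TBI library was thus below the lowest untreated library by a wide margin, the IgG RIT libraries lay in and just above the TBI range, and one CD45 RIT library lay inside the untreated range. The difference of TBI from untreated was -2.84 (SE 0.29), and H2-Q7 fell by 2.60 (SE 0.34) after IgG RIT (adjusted p = 0.00184, edgeR). After CD45 RIT its difference from untreated was 0.60 (SE 0.35, adjusted p = 0.191, edgeR) and was not called. It was -0.084 without scaling factors and 0.90 with DESeq2, which called it (adjusted p = 0.0386). In 5 of 7 processing alternatives it kept its sign and stayed uncalled.

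H2-Q6, its neighbour, followed it. The untreated libraries held 70.5, 72.8, 98.4 and 60.4 CPM, the TBI libraries 9.20, 10.8, 13.1, 24.9 and 12.0 CPM (replicates 1, 3, 4, 5 and 6), the IgG RIT libraries 10.2, 7.47 and 22.6 CPM and the CD45 RIT libraries 70.7 and 102 CPM. H2-Q6 stood at -2.43 (SE 0.38) for TBI from untreated and fell by 2.49 (SE 0.46) after IgG RIT (adjusted p = 0.00534, edgeR), or by 3.09 without IgG RIT replicate 3. Its CD45 RIT difference from untreated was 0.20 (SE 0.47, adjusted p = 0.764). That sign was not stable: it was -0.13 without CD45 RIT replicate 2 and -0.49 without scaling factors. Of the stretches of 50 bases in the coding transcripts of H2-Q6, 13.9% also occurred in H2-Q7. H2-Q6 and H2-Q7 therefore cannot be taken as independent measurements.

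H2-Q4, the least abundant heavy chain, was at 4.95 to 9.04 CPM in untreated libraries, 1.43 to 4.06 CPM in TBI, 2.31 to 4.33 CPM in IgG RIT and at 17.8 and 14.8 CPM in CD45 RIT libraries. Its ranges did not overlap between untreated and any treated group. Its differences from untreated were -1.25 (SE 0.37) for TBI, -1.12 (SE 0.44, adjusted p = 0.0980, edgeR) for IgG RIT and 1.26 (SE 0.47, adjusted p = 0.0540, edgeR) for CD45 RIT. The last passed the threshold without TBI replicate 6 (adjusted p = 0.0348, edgeR). It also passed with RLE factors (adjusted p = 0.0213, edgeR), without robust estimation (adjusted p = 0.0474, edgeR) and with DESeq2 (1.52, adjusted p = 2.51e-04). In the other 4 of 7 processing alternatives it stayed uncalled.

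**Figure D1:**
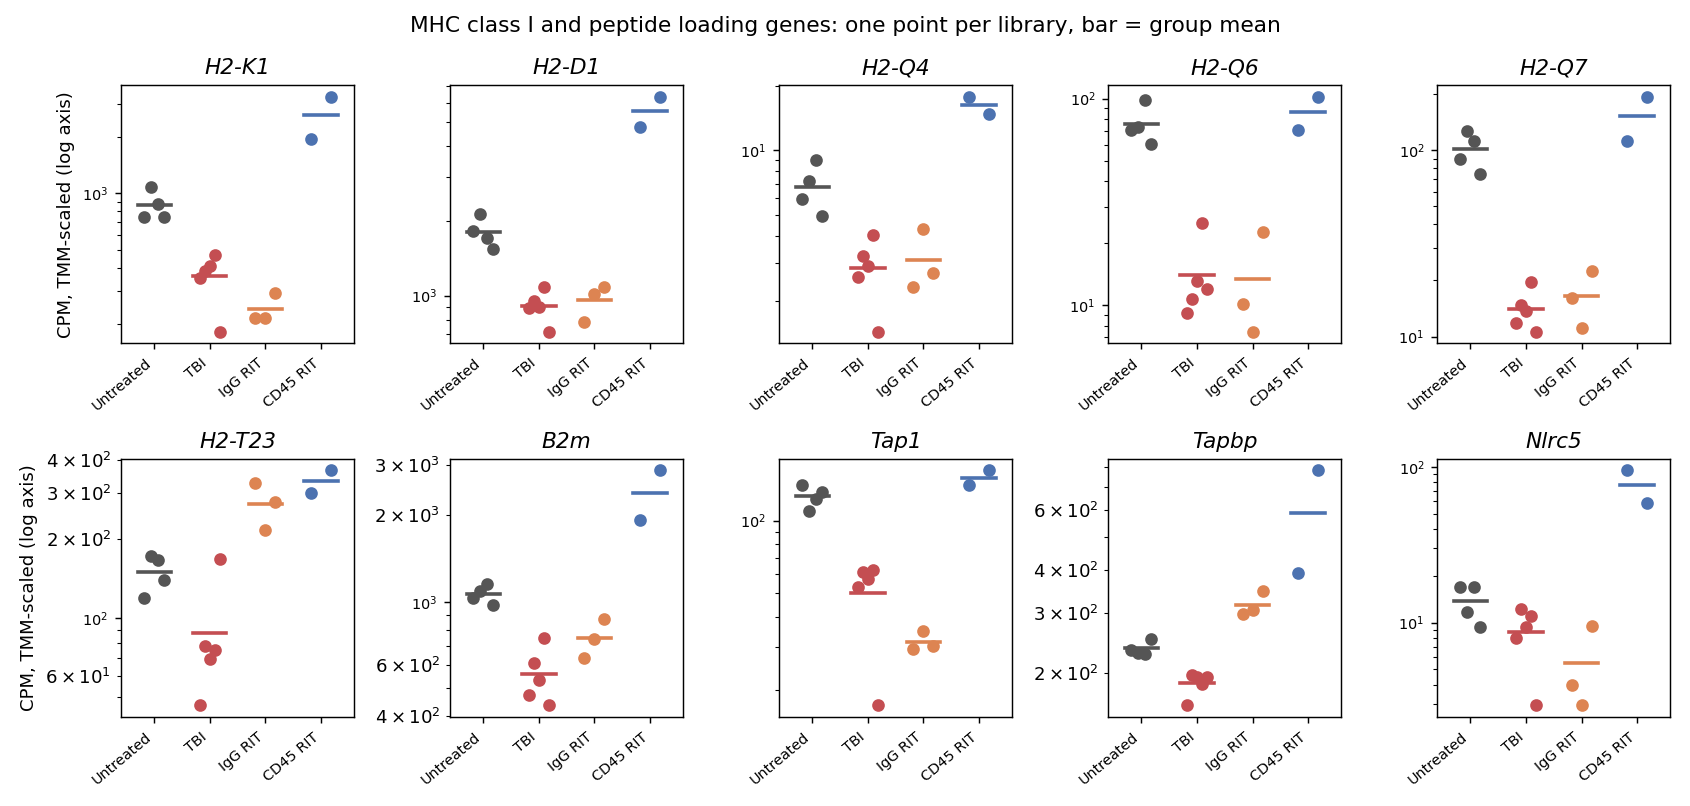
Scaled CPM of the 10 members on a logarithmic axis, with 1 point per library, 1 column per group and a bar at the group mean. H2-Q7 lies at 10.6 to 22.6 CPM in all TBI and IgG RIT libraries against 74.9 to 126 CPM in untreated ones, while H2-T23 and Tapbp lie higher in IgG RIT than in untreated libraries.

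H2-T23, the mouse Qa-1 heavy chain that natural killer cells read through CD94/NKG2 receptors, did not share this order. It was at 119, 172, 166 and 140 CPM in untreated libraries and at 46.3, 77.9, 69.4 and 75.3 CPM in TBI replicates 1, 3, 4 and 5, but at 168 CPM in TBI replicate 6. It was at 327, 216 and 277 CPM after IgG RIT and at 300.03 and 365 CPM after CD45 RIT. TBI replicate 6 therefore sat inside the untreated range, and all 5 RIT libraries lay above it. The TBI difference from untreated was -0.77 (SE 0.31), or -1.15 without replicate 6. The IgG RIT difference was 0.87 (SE 0.35, adjusted p = 0.105, edgeR) and was not called, although it passed without TBI replicate 6 (adjusted p = 0.0158) and without CD45 RIT replicate 2 (1.06, adjusted p = 0.0496). H2-T23 rose by 1.16 (SE 0.39) after CD45 RIT against untreated (adjusted p = 0.0365, edgeR). This call was lost without CD45 RIT replicate 2 (0.97, adjusted p = 0.174), without each of untreated replicates 1, 2, 3 and 4 in turn (adjusted p = 0.0764, 0.0521, 0.0558 and 0.0726), and without scaling factors (0.46, adjusted p = 0.248).

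B2m, the light chain without which classical class I molecules do not reach the surface, lay below its untreated range in every TBI and IgG RIT library and above it in both CD45 RIT libraries. It was at 1027, 1094, 1149 and 974 CPM in untreated libraries, at 472, 613, 534, 749 and 435 CPM in TBI replicates 1, 3, 4, 5 and 6, at 636, 740 and 874 CPM after IgG RIT and at 1927 and 2868 CPM after CD45 RIT. The TBI difference was -0.92 (SE 0.18). The IgG RIT difference was -0.50 (SE 0.21, adjusted p = 0.121, edgeR) and was not called. B2m rose by 1.18 (SE 0.23) after CD45 RIT (adjusted p = 0.00228, edgeR), and that value was 0.49 without scaling factors (adjusted p = 0.200).

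Tap1, which with Tap2 forms the transporter that carries peptides into the endoplasmic reticulum, was lower after TBI and IgG RIT and stood within or just above its untreated range after CD45 RIT. It was at 140.3, 110, 123 and 131 CPM in untreated libraries, at 53.2, 61.2, 57.3, 62.5 and 17.2 CPM in TBI replicates 1, 3, 4, 5 and 6, at 29.6, 34.9 and 30.4 CPM after IgG RIT and at 140.02 and 161 CPM after CD45 RIT. TBI replicate 6 lay far below the other TBI libraries and below the IgG RIT libraries. The TBI difference was -1.33 (SE 0.30), and Tap1 fell by 1.99 (SE 0.36) after IgG RIT (adjusted p = 0.00499, edgeR). The CD45 RIT difference from untreated was 0.26 (SE 0.38, adjusted p = 0.613), and -0.44 without scaling factors.

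Tapbp, which encodes tapasin, had the smallest TBI difference of the 10. It was at 234, 229.6, 228 and 253 CPM in untreated libraries, at 161, 197, 194.5, 186 and 194.7 CPM in TBI replicates 1, 3, 4, 5 and 6, at 298, 306 and 347 CPM after IgG RIT and at 393 and 783 CPM after CD45 RIT. Every TBI library was below and every RIT library above the untreated range. The TBI difference was -0.34 (SE 0.17), and the IgG RIT difference was 0.42 (SE 0.20, adjusted p = 0.151, edgeR), which passed without CD45 RIT replicate 1 (adjusted p = 0.0196) or replicate 2 (0.61, adjusted p = 0.00403) and turned to -0.094 without scaling factors. Tapbp rose by 1.32 (SE 0.22) after CD45 RIT against untreated (adjusted p = 7.57e-04, edgeR), and by 0.70 without CD45 RIT replicate 2 (adjusted p = 0.0124).

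Nlrc5, the activator of the class I promoters, was at 17.0, 11.7, 16.9 and 9.32 CPM in untreated libraries, at 7.92, 12.3, 9.34, 11.0 and 2.94 CPM in TBI replicates 1, 3, 4, 5 and 6, at 3.99, 2.94 and 9.56 CPM after IgG RIT and at 94.7 and 58.8 CPM after CD45 RIT. The untreated, TBI and IgG RIT ranges overlapped, and both CD45 RIT libraries were far above all others. Its differences from untreated were -0.66 (SE 0.45) for TBI and -1.32 (SE 0.53, adjusted p = 0.107, edgeR) for IgG RIT, the latter called at -1.98 without IgG RIT replicate 3 (adjusted p = 0.0469). Nlrc5 rose by 2.48 (SE 0.56) after CD45 RIT (adjusted p = 0.00539, edgeR), the largest fitted rise of the 10 members in that comparison.

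**Figure D2:**
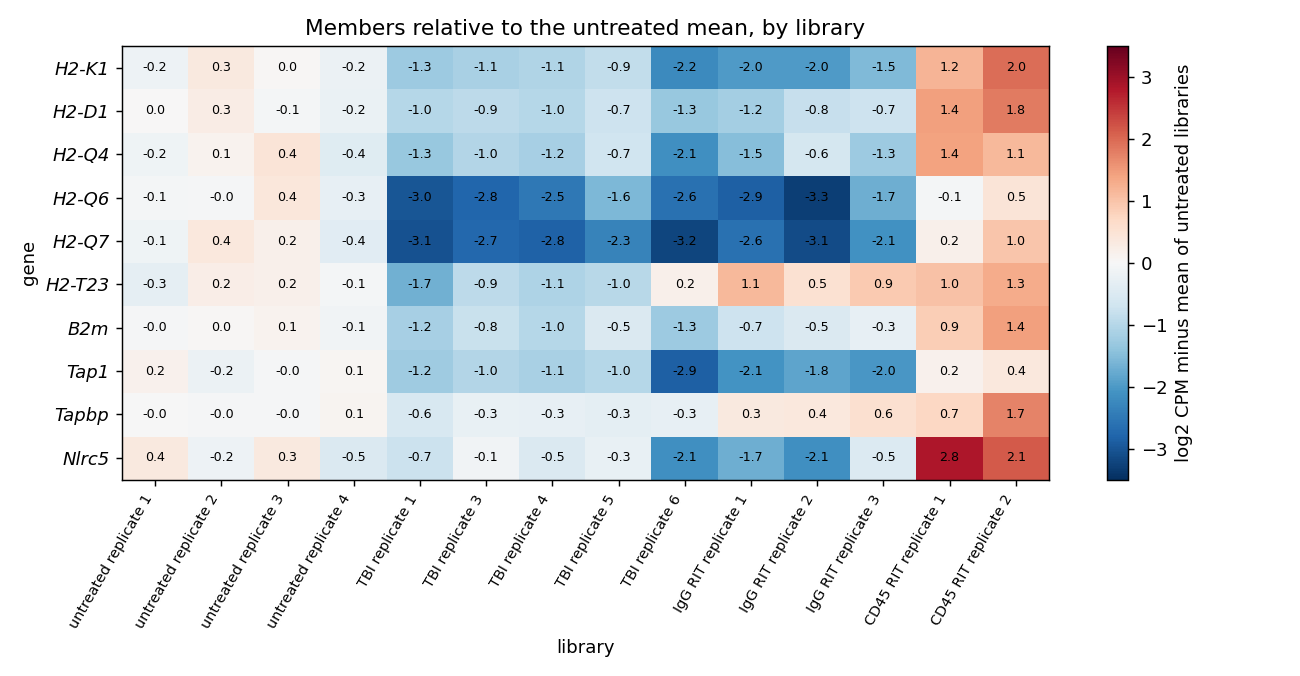
Level of each member in each of the 14 libraries as log2 CPM minus the mean of the untreated libraries, from blue (lower) to red (higher). TBI and IgG RIT columns are blue for the H2-K, H2-D and H2-Q genes and Tap1, H2-T23 and Tapbp are red in the IgG RIT columns, and TBI replicate 6 lies at 0.19 for H2-T23 and -2.86 for Tap1.

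Read across the set, TBI against untreated had 8 of 10 members wholly below the untreated libraries, with H2-T23 and Nlrc5 overlapping. Over all tested genes 12.8% were wholly lower, and nothing is read from the difference because the set was chosen in this comparison. The median fitted difference was -1.12 over the members and -0.16 over all tested genes. Without TBI replicate 6 the fitted difference moved to -1.09 for H2-K1, -1.11 for Tap1 and -0.44 for Nlrc5.

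After IgG RIT, 5 of the 10 members were called lower (H2-K1, H2-D1, H2-Q6, H2-Q7 and Tap1) and 0 higher, where 16.4% of all tested genes were called (10.7% lower and 5.75% higher). The median difference was -1.22 over the members and -0.42 over all tested genes. Neutrophil and erythroid marker sums differed between these groups as well (10285 to 12920 against 601 to 804 CPM, and 8607 to 15459 against 134950 to 143352 CPM), and their part in the calls was not tested. This comparison shares the untreated libraries with the one the set was chosen in, so a low value in both is not independent support. Without scaling factors the median of all genes moved by -0.52 and 8 members were called.

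CD45 RIT against untreated gave 6 members called higher (H2-K1, H2-D1, H2-T23, B2m, Tapbp and Nlrc5) and 0 lower, where 33.1% of all tested genes were called (14.5% higher and 18.6% lower). H2-Q4, H2-Q6, H2-Q7 and Tap1 were not called. The members' median was 1.22 and that of all genes -0.37. The untreated libraries are again shared, and without scaling factors, which moved the median of all genes by -0.71, 2 of the 6 calls were made (H2-D1 and Nlrc5). Stromal and macrophage markers were highest in these same 2 CD45 RIT libraries (34395 and 62248 CPM, and 2528 and 3375 CPM), and their part in the rise was not tested.

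The 2 forms of RIT carried the same activity and differed in the antibody, and their comparison shares no library with the one that chose the set. The spread behind its p-values was still estimated from all 14 libraries, those of that other comparison included. CD45 RIT was higher than IgG RIT for 9 of 10 members, where 37.7% of all tested genes were called (20.2% higher and 17.5% lower). Nlrc5 was higher by 3.802 (SE 0.64, adjusted p = 6.96e-04, edgeR), H2-K1 by 3.44 (SE 0.36, adjusted p = 3.08e-05, edgeR) and H2-Q7 by 3.20 (SE 0.38, adjusted p = 6.65e-05, edgeR). H2-Q6 by 2.69 (SE 0.51), H2-D1 by 2.54 (SE 0.22), H2-Q4 by 2.39 (SE 0.51), Tap1 by 2.25 (SE 0.40) and B2m by 1.68 (SE 0.25) followed, with adjusted p between 9.53e-06 and 0.00331 (edgeR). In 9 of the 10 genes, all but H2-T23, both CD45 RIT libraries lay above all 3 IgG RIT libraries, as did 21.7% of all tested genes.

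Tapbp, also called, was higher by 0.89 (SE 0.23, adjusted p = 0.0101, edgeR) in CD45 RIT than in IgG RIT, but by 0.084 without CD45 RIT replicate 2 (adjusted p = 0.784), so that call rested on 1 library. H2-T23 was the member not called: its difference was 0.29 (SE 0.42, adjusted p = 0.611, edgeR) and -0.089 without CD45 RIT replicate 2. The size for H2-K1 was 2.79 without CD45 RIT replicate 2, for H2-Q7 2.54 without the same library, and for H2-Q6 and Nlrc5 3.29 and 4.47 without IgG RIT replicate 3, all still called. The members' median difference was 2.46 against -0.13 over all tested genes. With only these 2 groups fitted, H2-Q4, H2-Q6 and Tapbp were not called (adjusted p = 0.0882, 0.0629 and 0.178, edgeR). With the libraries numbered 10 to 16 fitted alone, 4 of the 9 calls were made (H2-K1, H2-D1, H2-Q7 and Tap1). Stromal and macrophage marker sums differed between these groups in the same direction (422 to 1297 against 34395 and 62248 CPM, and 121 to 174 against 2528 and 3375 CPM), and their part in the difference was not tested.

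**Figure D3:**
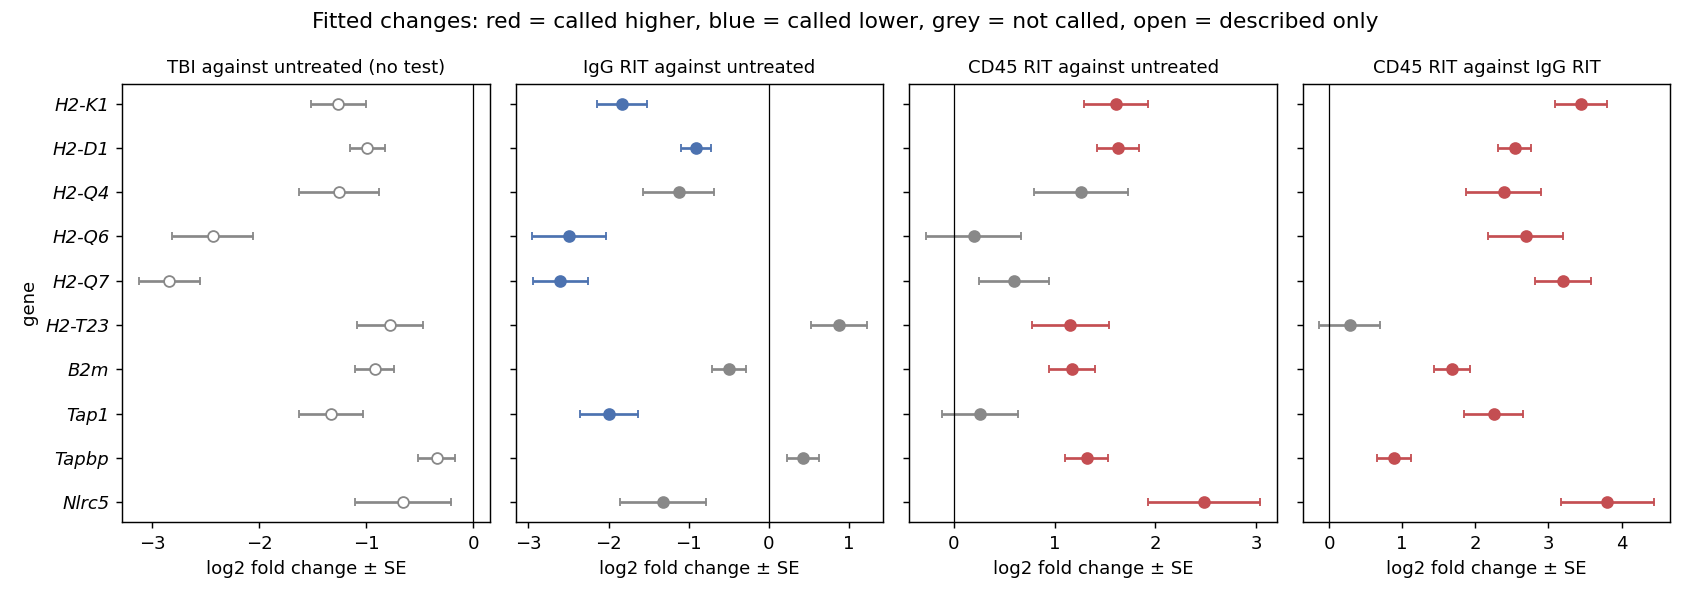
Fitted log2 fold change of each member (point) with its standard error (bar) in 4 comparisons, red where called higher, blue where called lower, grey where not called and open where only described. H2-T23 lies to the right of 0 after IgG RIT against untreated (0.87) where H2-K1 lies at -1.83, and it is the single grey point for CD45 RIT against IgG RIT.

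CD45 RIT was higher than TBI for all 10 members, from 1.58 (SE 0.35) for Tap1 to 3.44 (SE 0.32) for H2-Q7, where 38.6% of all tested genes were called (19.6% higher and 19.0% lower). The median was 2.57 over the members and -0.39 over all genes. The TBI libraries are shared with the comparison that chose the set. When the libraries numbered 10 to 16 were fitted alone, TBI was left with replicate 6, whose spread was taken from the RIT groups, and 0 of the 10 were called. The fitted differences in that fit were all above 0, with H2-T23 at 0.89, and so few libraries say little about the calls.

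Between IgG RIT and TBI the fitted differences ran from -0.67 for Tap1 to 1.64 for H2-T23. By edgeR's quasi-likelihood test 0 of 10 were called, where 0.242% of all tested genes were. An unadjusted p under 0.05 was found for 2 members, and DESeq2 called the same 2. No share of all genes is given here for these 2 rules, so nothing is read from their counts. The 2 members were H2-T23, higher after IgG RIT by 1.64 (SE 0.33, adjusted p = 0.0652, edgeR), and Tapbp, higher by 0.76 (SE 0.19, adjusted p = 0.0824, edgeR). In each, all 3 IgG RIT libraries lay above all 5 TBI libraries, as did 8.37% of all tested genes. TBI replicate 6 bore on the edgeR count. Without it 4 members were called by edgeR: H2-T23 rose by 2.02 (adjusted p = 9.35e-04) and Tapbp by 0.78 (adjusted p = 0.0292), while H2-K1 fell by 0.74 (adjusted p = 0.0491) and Tap1 by 0.89 (adjusted p = 0.00609). Leaving out either CD45 RIT library, which enter this comparison through the estimate of the spread alone, gave 2 calls. H2-Q7 differed between IgG RIT and TBI by 0.23 (SE 0.30, adjusted p = 0.706), an SE that leaves differences of either sign possible.

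Ratios of counts within a library do not depend on the scaling. H2-Q7 per H2-K1 was 0.101 to 0.129 in untreated libraries, 0.0334 to 0.0585 after TBI, 0.0517 to 0.0774 after IgG RIT and 0.0574 and 0.0589 after CD45 RIT. Each treated group lay below the untreated range, the CD45 RIT libraries included, in which both genes lay within or above their untreated ranges. H2-K1 per B2m was 0.728 to 0.984 in untreated, 0.417 (replicate 6) to 0.763 in TBI, 0.291 to 0.339 in IgG RIT and 1.01 and 1.15 in CD45 RIT libraries. The heavy chain thus stood lowest relative to the light chain after IgG RIT and highest after CD45 RIT.

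H2-T23 per H2-K1 set 4 libraries apart. It was 0.159 to 0.190 in untreated libraries, 0.131 to 0.202 in TBI replicates 1, 3, 4 and 5, and 0.154 and 0.111 in CD45 RIT libraries, but 0.925 in TBI replicate 6 and 0.948 to 1.52 in the IgG RIT libraries. These 4 libraries and the CD45 RIT libraries carry the numbers 10 to 16. The 4 had erythroid marker sums of 134950 to 176986 CPM, and CD45 RIT replicates 1 and 2 had sums of 191880 and 47436 CPM beside their ratios of 0.154 and 0.111. The part of the numbering and of the erythroid content in this ratio was not tested. Tapbp per B2m was 0.199 to 0.259 in untreated, 0.249 to 0.447 in TBI, 0.397 to 0.469 in IgG RIT and 0.204 and 0.273 in CD45 RIT libraries.

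**Figure D4:**
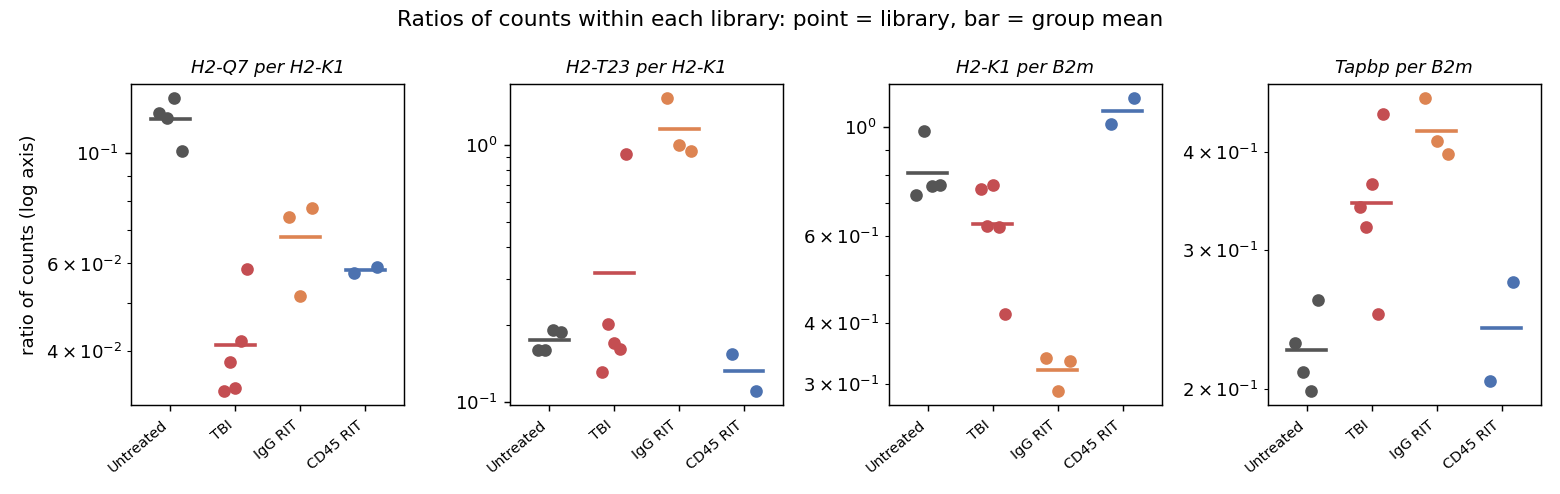
Ratios of counts within each library on a logarithmic axis for 4 pairs of members, with 1 point per library and a bar at the group mean. For H2-T23 per H2-K1, TBI replicate 6 (0.925) lies beside the IgG RIT libraries (0.948 to 1.52) and all other libraries lie at 0.111 to 0.202.

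Likeness of pattern was measured as the root mean square difference in centred log2 CPM over the 14 libraries, among 8112 genes and as a description. The gene closest to H2-Q7 was H2-Q6 (0.361), followed by Emb (0.485), Camk1 (0.496), Ctsh (0.502) and Hoxa9 (0.544). Closest to B2m were Ppdpf (0.274), H2-D1 (0.287), Pabpn1 (0.292), Macf1 (0.301) and Necap1 (0.304). Among the members, H2-D1 and B2m were the closest pair and H2-Q7 and Tapbp the farthest (2.09), and H2-T23 was closest to Tapbp (0.552). All these values share the same libraries and depths.

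Beyond the 10 members, 44 further genes of the pathway were listed, of which 39 were tested. Of the tested genes 16 were called after IgG RIT against untreated (1 higher and 15 lower) and 16 after CD45 RIT against untreated (13 higher and 3 lower). CD45 RIT against IgG RIT gave 25 (21 higher and 4 lower), and IgG RIT against TBI gave 0 by edgeR, with 14 at an unadjusted p under 0.05 and 6 called by DESeq2. The shares of all tested genes given above apply to the edgeR counts, and shares for the unadjusted p and for DESeq2 are not given here. The median differences of the 39 were -0.97, 0.62 and 1.77 in the first 3 of these comparisons, and -0.14 in the last.

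Genes of peptide supply and loading were called lower after IgG RIT against untreated in 9 of 11, where 10.7% of all tested genes were. Psmb8, a proteasome subunit induced by interferon that changes which peptides are cut, was at 331.7, 432, 378 and 317 CPM in untreated libraries, at 117, 114, 98.8, 127 and 18.7 CPM in TBI replicates 1, 3, 4, 5 and 6, at 31.4, 24.6 and 81.7 CPM after IgG RIT and at 138 and 291 CPM after CD45 RIT. All 3 treated groups lay below the untreated range. Psmb8 fell by 2.99 (SE 0.62) after IgG RIT (adjusted p = 0.00824, edgeR). Its partner subunits Psmb9 fell by 2.32 (SE 0.53, adjusted p = 0.0123) and Psmb10 by 1.91 (SE 0.42, adjusted p = 0.0108), and Tap2, the second half-transporter, by 2.01 (SE 0.41, adjusted p = 0.00760). The other 5 called lower were the tapasin relative Tapbpl, the chaperone Calr, the disulfide isomerase Pdia3 and the proteasome activator subunits Psme1 and Psme2, and Canx and Erap1 were not called. Psmb9 overlaps Tap1 on the opposite strand, so their counts cannot be told apart where strand was not used.

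After CD45 RIT, 0 of the 11 supply and loading genes were called higher against untreated and 2 were called lower. Of all tested genes, 14.5% were called higher and 18.6% lower. The 2 were Canx, lower by 0.62 (SE 0.20, adjusted p = 0.0314, edgeR), and Psme1, lower by 0.73 (SE 0.21, adjusted p = 0.0191, edgeR). Psmb8 differed by -0.77 (SE 0.65, adjusted p = 0.367) and Psmb9 by -0.092 (SE 0.55, adjusted p = 0.911). Against IgG RIT 7 of 11 were called higher, where 20.2% of all tested genes were. Among the 7 were Tap2, higher by 2.82 (SE 0.46), Psmb10 by 2.57 (SE 0.47), Psmb9 by 2.23 (SE 0.58) and Psmb8 by 2.22 (SE 0.66), with adjusted p from 6.08e-04 to 0.0194 (edgeR).

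Of the other class I and class I-like genes, 6 of 10 tested were called higher after CD45 RIT against untreated and 0 lower. Of all tested genes, 14.5% were called higher and 18.6% lower. H2-Q10, a heavy chain known chiefly as a secreted liver product, was at 6.81 to 26.3 CPM in untreated libraries and 173 and 349 CPM after CD45 RIT, a rise of 4.09 (SE 0.82, adjusted p = 0.00284, edgeR). Fcgrt, the neonatal Fc receptor that rescues IgG from breakdown, was at 26.5 to 88.6 CPM in untreated libraries, 10.6 to 21.99 CPM after IgG RIT, and 551 and 923 CPM after CD45 RIT. Fcgrt rose by 3.77 (SE 0.55, adjusted p = 3.94e-04, edgeR) after CD45 RIT and fell by 1.70 (SE 0.52, adjusted p = 0.0450, edgeR) after IgG RIT. Mr1 rose by 3.62, Hfe, which acts in iron sensing, by 3.33, Cd1d1, which presents lipids, by 2.63 and H2-T22 by 2.31 after CD45 RIT. After IgG RIT, H2-M3 fell by 2.40 (SE 0.73, adjusted p = 0.0414, edgeR) and Cd1d1 fell by 2.27 (SE 0.32, adjusted p = 0.00203, edgeR). Of the 10 genes, 3 were called lower and 0 higher, where 10.7% and 5.75% of all tested genes were. H2-T24, a T region gene named after its values were seen, was compared with H2-T23 and held 6.16 to 16.3 CPM in untreated, 13.5 to 35.8 CPM in TBI and 73.7 to 111 CPM in IgG RIT libraries. Its IgG RIT difference from untreated was 3.07 (SE 0.99, adjusted p = 0.0519, edgeR) and was not called, and the 2 CD45 RIT libraries held 57.8 and 0.240 CPM.

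Among 18 regulators and interferon receptors, 3 were lower and 1 higher after IgG RIT, where 16.4% of all tested genes were called. After CD45 RIT 7 were higher and 1 lower, where 33.1% were called. The list's median differences were 0.092 and -0.057, against -0.42 and -0.37 over all tested genes. The genes named below do not stand for the whole list. Irf1, an activator of class I and immunoproteasome genes, was at 39.6 to 71.1 CPM in untreated libraries, 9.54 to 33.4 CPM in TBI, 4.03 to 14.6 CPM in IgG RIT and 173 and 428 CPM in CD45 RIT libraries, with no overlap between untreated and any treated group. It fell by 2.77 (SE 0.55, adjusted p = 0.00706, edgeR) after IgG RIT and rose by 2.49 (SE 0.54, adjusted p = 0.00456, edgeR) after CD45 RIT. The chains of the interferon gamma receptor moved likewise. Ifngr1 fell by 2.51 (SE 0.36) after IgG RIT and rose by 1.66 (SE 0.36) after CD45 RIT, with adjusted p of 0.00213 and 0.00447 (edgeR). Ifngr2 fell by 1.54 (SE 0.31) and rose by 2.14 (SE 0.33), with adjusted p of 0.00763 and 4.76e-04 (edgeR). Irf2, Ifnar2 and Jak1 were also called higher after CD45 RIT. Jak1 was at 129 to 241 CPM in untreated libraries and at 204 and 758 CPM after CD45 RIT, so these groups overlapped. Creb1, a factor of the cAMP-response core, fell by 5.05 (SE 0.40, adjusted p = 5.89e-06) after CD45 RIT, to a mean of 0.879 CPM. Nfyc, a CCAAT-binding subunit, rose by 0.93 (SE 0.26, adjusted p = 0.0291) after IgG RIT.

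**Figure D5:**
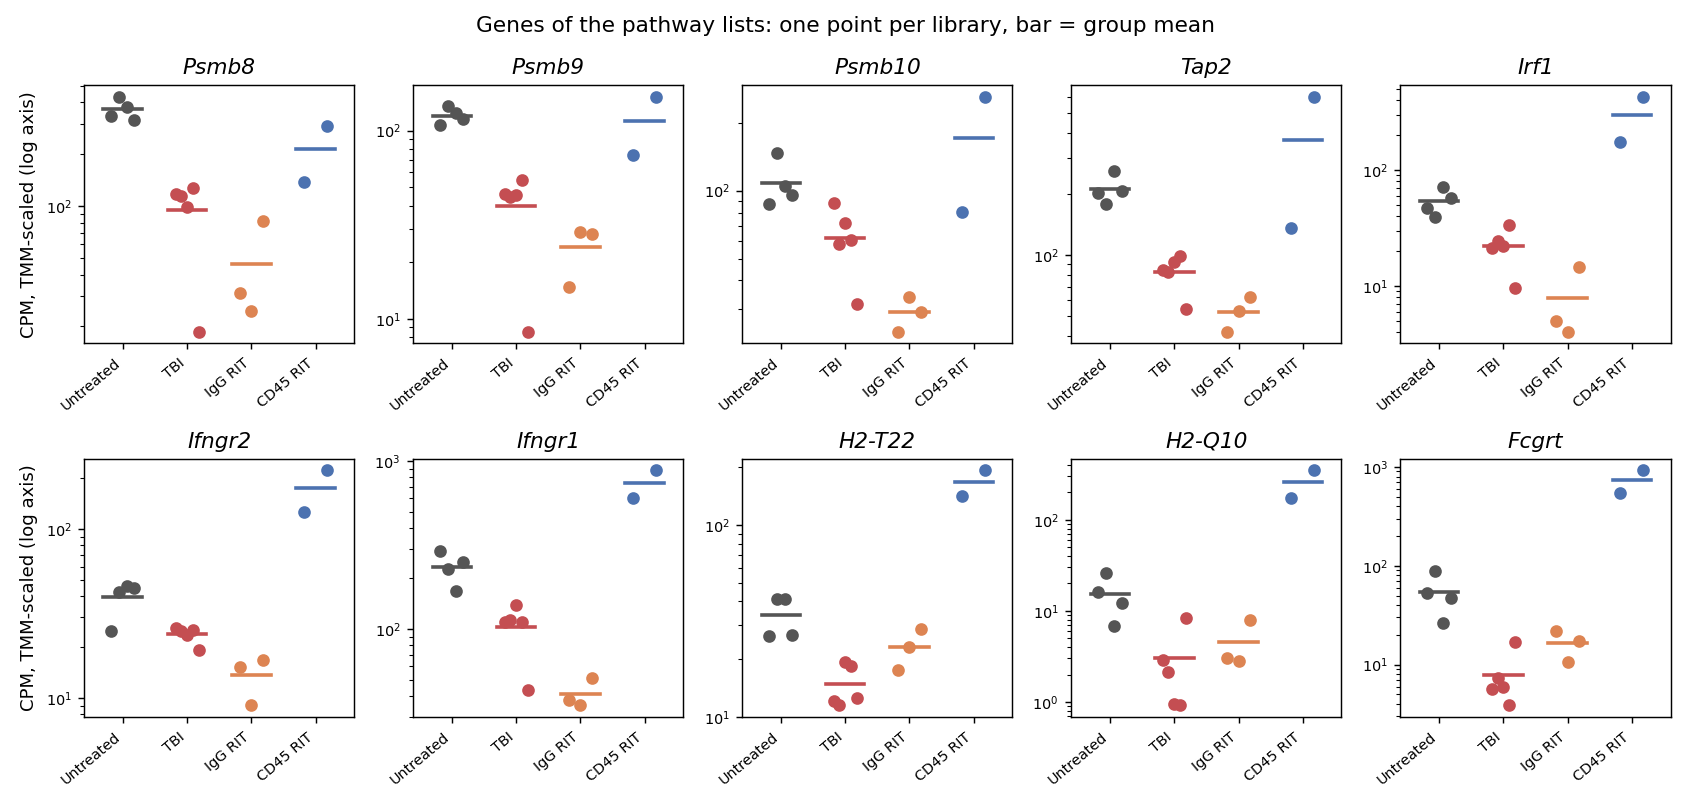
Scaled CPM of 10 genes of the pathway lists, picked after their values were seen, on a logarithmic axis with 1 point per library and a bar at the group mean. Psmb8 stays below its untreated range of 317 to 432 CPM in both CD45 RIT libraries (138 and 291 CPM), while Irf1, Ifngr1, H2-T22, H2-Q10 and Fcgrt lie above their untreated ranges there.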

How the data were processed

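RNA of sorted bone marrow cells was amplified with the SMART-Seq v4 kit and tagmented with Nextera XT, as the labels' protocols state. The values are raw counts of reads per gene in 14 libraries, deposited by the authors in 1 table that also gives each gene's length and coordinates. STAR 2.7.7a, FastQC 0.11.9 and edgeR 3.36.0 are named in the submitters' processing notes, as is the build hg38. The gene identifiers and coordinates of the deposited table are those of mouse: 54587 identifiers matched GENCODE M21 (GRCm38), all with equal coordinates. The counter, the use of strand and the handling of shared reads are not given in the sources used here. The libraries carry no molecular identifiers, so repeated copies of a molecule were counted as reads.

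Genes were kept by filterByExpr (minimum count 10, minimum total count 15), which left 21509. In R 4.3.3, edgeR 4.0.16 fitted a robust quasi-likelihood model with 1 coefficient per group to all 14 libraries on TMM-scaled sizes, and 5 comparisons were tested. P-values were adjusted over all tested genes by the Benjamini-Hochberg method, and genes under 0.05 were called. The standard error (SE) is the log2 fold change divided by the root of the F statistic. Levels per length used the deposited gene lengths, which the files do not define further, and ratios used the counts with nothing added. Log2 CPM for the patterns used a prior count of 2. The fit was checked on simulated data. Alternatives were DESeq2 1.42.0, other scaling, filters and samples, a replicate block and leaving out each library.

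The members and lists were chosen with earlier results of these data known. All 10 members are named, as are genes of 3 pathway lists called in at least 1 comparison or with a stated role, and the 5 genes of mean log2 CPM at least 3 nearest in pattern to H2-Q7 and to B2m, predicted genes and pseudogenes left out. Genes shown in the plot of pathway genes, and H2-T24, were chosen after their values were seen. TBI replicate 2 was not analysed here. One gene of the pathway lists is not reported here.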

Additional observations from a re-analysis of the deposited data

Results flagged for a closer look

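Each member's libraries were searched for a value apart from the rest in the groups of 4 and 5 libraries, which made 20 searches, and chance marks about 1 in 20. In 2 of them the lowest library stood apart. For Tap1 in TBI, replicate 6 was at 17.2 CPM and the nearest library at 53.2 CPM, a gap of 0.874 of the group's range. For Tapbp in TBI, replicate 1 was at 161 CPM and the nearest at 186 CPM, a gap of 0.725 of the range.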

How the results depend on the processing

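Counts of calls moved with the libraries, tool and scaling used. Shares of all genes called are not given here for the alternative runs, so these counts describe how calls moved and nothing more. Fitting the libraries numbered 10 to 16 alone gave 4 members for CD45 RIT against IgG RIT (9 with all libraries) and 0 for CD45 RIT against TBI (10 with all), and 10 and 0 pathway genes (25 and 21 with all). That fit leaves TBI with replicate 6 alone, assumed to vary like the RIT groups, so its 0 calls say little about stability. No scaling gave 2 members for CD45 RIT against untreated (6 with TMM), 1 for IgG RIT against TBI (0) and 8 for IgG RIT against untreated (5). DESeq2 gave 2 members and 6 pathway genes for IgG RIT against TBI and 8 members for IgG RIT against untreated. Fitting only the 2 groups compared gave 2 members and 1 pathway gene for IgG RIT against TBI. It gave 10 pathway genes for CD45 RIT against IgG RIT and 25 for IgG RIT against untreated. For CD45 RIT against IgG RIT that fit also left the members H2-Q4, H2-Q6 and Tapbp uncalled.

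Leaving out 1 library at a time gave 8 to 9 members for CD45 RIT against IgG RIT, 10 to 10 for CD45 RIT against TBI, 5 to 7 for CD45 RIT against untreated, 0 to 4 for IgG RIT against TBI and 5 to 7 for IgG RIT against untreated. The pathway counts were 18 to 31, 18 to 30, 15 to 24, 0 to 8 and 9 to 26 in the same order. The 26 came without CD45 RIT replicate 2 and the 9 without IgG RIT replicate 1. Where CD45 RIT keeps 1 library, that library is assumed to vary like the other groups.

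Libraries of the same replicate number showed little likeness: 1 of 13 same-numbered pairs correlated over 0.1 (-0.0896 to 0.139), and 3 of 12 libraries correlated best with their own number. The check used deviations from the means of groups with few libraries, so it cannot exclude pairing. With a replicate block 10 pathway genes were called for IgG RIT against untreated (16 without it), and for IgG RIT against TBI the difference was -0.064 for H2-D1, -0.078 for H2-Q4 and 0.24 for H2-Q6.

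Signs changed elsewhere only for differences that were not called. For IgG RIT against TBI, no scaling gave -0.32 for H2-D1, -0.29 for H2-Q4 and -0.18 for H2-Q7, the libraries numbered 10 to 16 gave 0.36 for H2-K1, 0.12 for H2-Q6, 0.85 for Nlrc5 and 0.83 for Tap1, and H2-Q6 was 0.024 with DESeq2, 0.024 with RLE factors and 0.0034 with only the 2 groups compared. For CD45 RIT against untreated, no scaling gave -0.49 for H2-Q6, -0.084 for H2-Q7 and -0.44 for Tap1, and for IgG RIT against untreated it gave -0.094 for Tapbp. Leaving out 1 library, IgG RIT against TBI ranged from -0.014 to 0.20 for H2-D1, -0.19 to 0.30 for H2-Q4, -0.66 to 0.25 for H2-Q6 and -0.052 to 0.45 for H2-Q7, CD45 RIT against untreated from -0.13 to 0.43 for H2-Q6, and CD45 RIT against IgG RIT from -0.089 to 0.43 for H2-T23.

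All 10 fitted differences of TBI from untreated stayed below 0 in every alternative run that held untreated libraries. The set was chosen in this comparison, so nothing is read from that. The causes of the shifts in calls and signs were not tested. CD45 RIT had 2 libraries and IgG RIT 3, and what part counting error and spread between libraries had in the precision was not tested.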
